A study of Mus musculus with 6 samples.

Results

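The genes described here encode the machinery that places, reads and maintains methylation of histone H3 at lysine 9 (H3K9) and holds endogenous retroviruses silent. They are a list of 33 genes, chosen by name with earlier results of these data known, and grouped by role. The groups are KRAB zinc finger proteins with TRIM28, SETDB1 with the HUSH complex, the SUV39H and SETDB2 enzymes, the G9a-GLP complex, HP1 proteins, remodellers with the DAXX-ATRX pair, histone chaperones, the LSD1-CoREST complex and the SUMO pathway. All 33 were found among the 41388 gene rows of the deposited count table, and all 33 passed the filter on low counts that left 14717 genes to test. The smallest count of any of them in any library was 60.

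RNA was measured in mouse induced pluripotent stem cells (iPSCs), which are body cells returned to an embryonic, pluripotent state. The lines carried either no miR-34a, a microRNA that p53 induces (genotype miR-34a-/-, called knockout), or both alleles (wild-type). There were 3 lines of each genotype, and the question is which transcripts differ when miR-34a is missing. Lines of both genotypes are of strain C57BL/6 and came from embryonic fibroblasts of littermates at E13.5. Both were reprogrammed with pMX retroviruses carrying mouse Oct4, Sox2 and Klf4, then picked as single colonies and grown on irradiated fibroblast feeders in serum-containing medium. All lines therefore carry integrated retroviral vectors, and feeder RNA may be present in each. The sources used here do not say which line came from which embryo, so p-values weigh the genotypes only against the spread between these lines. In bulk RNA, fewer cells of a type and less RNA per cell cannot be told apart.

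Libraries held 8432597 to 29654855 counts. In the shallowest, 3 counts correspond to 0.375 CPM (counts relative to a scaled library size). The deleted gene gave no check of the labels, since Mir34a was counted 1 time in the first knockout line, 2 times in the first wild-type line and 0 times elsewhere, as is usual for a hairpin in poly(A) RNA. The pluripotency markers (Pou5f1, Nanog, Sox2, Zfp42, Sall4, Lin28a, Esrrb and Tdgf1) were present in every library. Their summed level was 5083 to 5329 CPM in knockout lines and 4266 to 4454 CPM in wild-type lines. By the test given below, 6 of them were higher in the knockout (75%) and 1 lower (12.5%), against 26.5% and 24% of all genes tested. Lin28a was the lower one (303 ± 22.3 against 508 ± 41.3 CPM), and Sall4 was not called. The Pou5f1 (Oct4) and Sox2 counts may include vector RNA, which was not tested. The genotypes also differed in Y-linked RNA: Ddx3y stood at 0.163 ± 0.0470 CPM in knockout lines and at 11.7 ± 0.974 CPM in wild-type lines (SD, n = 3). Xist, the RNA that silences one X chromosome in female cells, stood at 4.90 ± 0.749 and 3.06 ± 0.0820 CPM. These values matter most directly for the X-linked genes Suv39h1 and Atrx. Y-linked RNA split the lines exactly as genotype did, so Y-linked status and genotype cannot be told apart for any gene here. Knockout replicate 3, one of the shallow libraries, lay closer to the wild-type than the other knockout lines for many genes.

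Methyl groups on H3K9 mark condensed, silent chromatin. In pluripotent cells, KRAB zinc finger proteins recognise retroviral sequences and recruit the co-repressor TRIM28, which brings the methyltransferase SETDB1. HP1 proteins bind the finished mark and compact the chromatin, and histone chaperones, remodellers and SUMO modification keep the mark in place when DNA is copied. G9a and GLP write the dimethylated form, the SUV39H enzymes write the trimethylated form at satellite repeats, and LSD1 removes methyl groups from H3K4.

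The microRNA that is missing in the knockout is miR-34a-5p, from chromosome 4 (chr4:150068473-150068494, plus strand, GRCm38.p6, RefSeq), and its seed, bases 2 to 8, pairs with matching letters in the 3′ untranslated region (UTR) of a messenger RNA. Its sequence is shown with the seed in capitals.
miR-34a-5p: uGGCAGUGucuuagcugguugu
Seed matches stood in the longest annotated 3′ UTR (GENCODE M21) of 8 of the 33 genes, or 24.2%. The share over 13409 tested genes with a 3′ UTR was 23.3%, so matches were about as frequent among the 33 as elsewhere. The kinds counted were the match to bases 2 to 8 (7mer-m8), the match to bases 2 to 7 followed by an A (7mer-A1) and both together (8mer). The sites below are from the G9a-GLP and HP1 genes, the groups with most matches, as 30 bases of sense strand ending at the match, which is in capitals.
Ehmt1 8mer: ctggtctccgaagcccttgctcCACTGCCA
Zfp644 8mer: agaggtatatgtatatatacctCACTGCCA
Ehmt2 7mer-m8: ggactcttaaaatccaggccgggCACTGCC
Cbx1 7mer-A1: cttcgatagtgaccctcggcctgACTGCCA
Cbx5 7mer-A1: agcataagaaccatcttgtttagACTGCCA
Cbx5 7mer-m8: ctgggatcaaacatgtgtatcacCACTGCC
The match began at base 289 of 2022 in the Ehmt1 UTR on chromosome 2, at 1421 of 1497 for Zfp644 on chromosome 5, at 24 of 231 for Ehmt2 on chromosome 17 and at 145 of 1143 for Cbx1 on chromosome 11. The Cbx5 UTR on chromosome 15, 8097 bases long, held both its matches, at bases 4230 and 6380. Pphln1 and Rcor1 carried a 7mer-m8 and Chaf1a a 7mer-A1. A match is a description of letters, and pairing was not measured.

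More of the 33 genes were lower than higher in the knockout. With edgeR's quasi-likelihood test and Benjamini-Hochberg adjustment over all genes tested, 5 were higher, 15 were lower and 13 were not called at an adjusted p under 0.05. Over all 14717 genes, 26.5% were called higher and 24% lower, against 15.2% and 45.5% of the 33. Because the list was chosen with earlier results of these data known, this comparison is only a description. The median log2 fold change (knockout over wild-type) was -0.15 over the 33 genes and 0.01 over all genes tested. Most differences were small: the 20 called genes had a median size of log2 fold change of 0.50, beside 0.48 for every called gene in the table, and only Suv39h1 passed 2-fold. The 3 knockout and 3 wild-type values did not overlap in 20 of the 33 genes (60.6%), against 56% of all genes tested. The HP1 genes, Smchd1, Atrx, Suv39h2, Pphln1 and Zfp644 led the lower genes, and Suv39h1 and Zfp57 the higher ones.

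**Figure D1:**
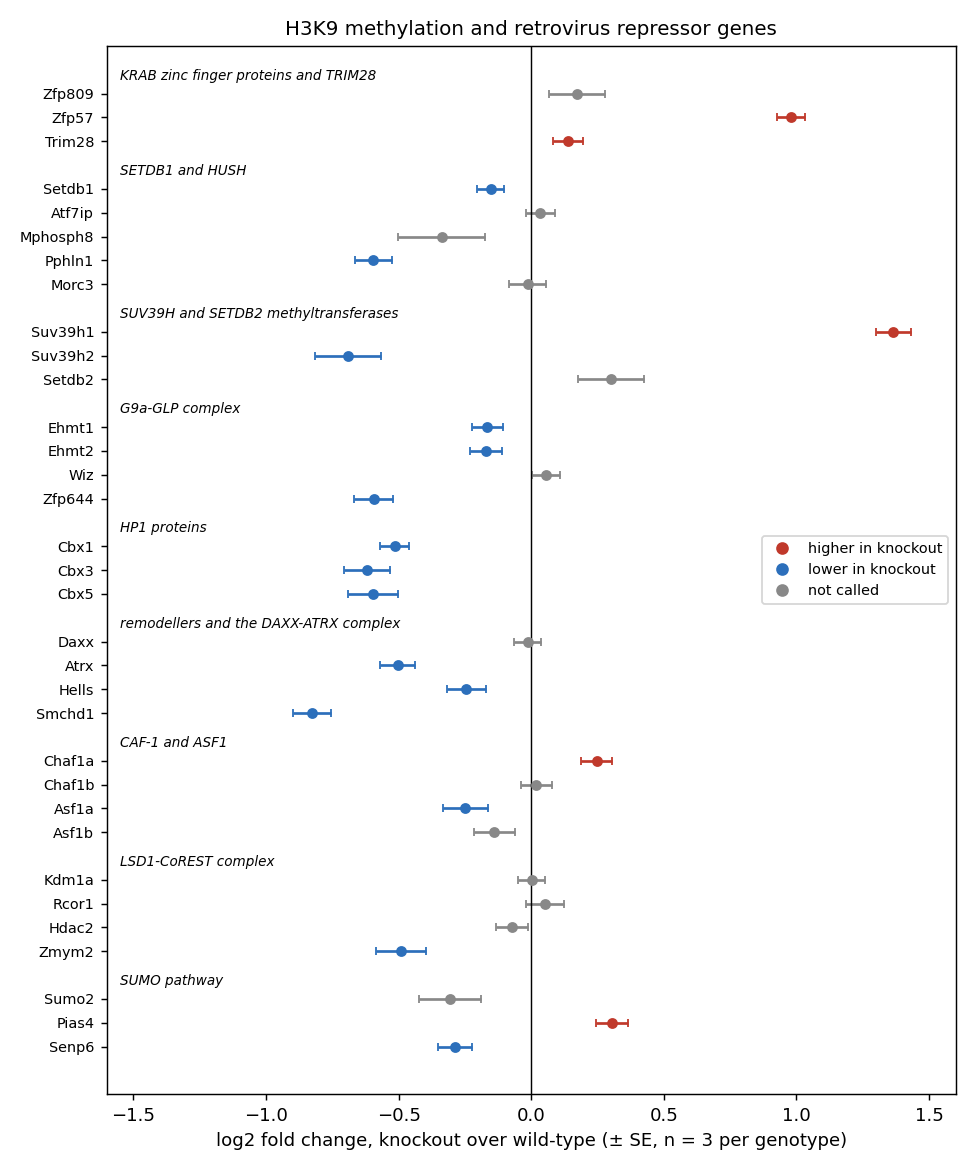
Log2 fold change of each of the 33 genes (points, with SE bars, n = 3 lines per genotype), grouped by role, with red for genes higher, blue for lower and grey for not called in the knockout. Suv39h1 (1.37) and Zfp57 (0.98) lie far to the right, the 3 HP1 genes lie together between -0.62 and -0.51, and Smchd1 is lowest at -0.83.

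Of the KRAB zinc finger genes and their co-repressor, 2 of 3 were higher and none was called lower. Zfp57 (ENSMUSG00000036036, chromosome 17, 37001163 to 37010635, mm10), which encodes a zinc finger protein that keeps imprinted regions methylated, stood at 513, 551 and 531 CPM in knockout replicates 1 to 3 and at 265, 260 and 284 CPM in the wild-type. Every knockout library was well above every wild-type library. The means were 532 ± 18.8 and 270 ± 12.5 CPM (SD, n = 3), a log2 fold change of 0.98 (SE 0.054, adjusted p = 2.6e-11). Trim28, the shared co-repressor of KRAB proteins, stood at 3220, 3014 and 2980 CPM in knockout lines and 2884, 2733 and 2743 CPM in wild-type lines. These groups lay next to each other without overlapping, and the log2 fold change was 0.14 (SE 0.056, adjusted p = 0.045). That call was lost in 9 of 15 alternatives, among them the removal of GC trends (0.04, adjusted p = 0.5). Zfp809, whose protein recognises the primer binding site of murine leukaemia viruses, stood at 14.3, 15.1 and 14.6 CPM in knockout lines and between 11.8 and 15.6 CPM in wild-type lines. Its log2 fold change was 0.17 (SE 0.106, adjusted p = 0.19), with a 95% interval from -0.04 to 0.38. With GC trends removed it was called higher (0.29, adjusted p = 0.027).

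SETDB1 writes H3K9 trimethylation over retroviruses, and the HUSH complex spreads and holds that mark over transposable elements. Pphln1, which encodes the HUSH subunit periphilin, had the clearest difference of this group. It stood at 32.5, 31.6 and 34.0 CPM in knockout lines and 45.9, 51.8 and 50.5 CPM in wild-type lines, with a log2 fold change of -0.60 (SE 0.069, adjusted p = 8.3e-07). Zcrb1, whose start lies 16 bases from that of Pphln1 on the other strand, was lower too (22.3 ± 1.81 against 30.3 ± 1.86 CPM, log2 fold change -0.42, adjusted p = 0.00029). Mphosph8, the HUSH subunit that reads the mark, stood at 45.9, 60.2 and 72.2 CPM in knockout lines and 69.3, 77.4 and 75.7 CPM in wild-type lines. Knockout replicate 3 lay among the wild-type values, and the gene was not called (log2 fold change -0.34, SE 0.164, adjusted p = 0.14). It was called without that library (-0.47, adjusted p = 0.0035), and also with every library kept when robust was FALSE (adjusted p = 0.026) or the count filter was looser (adjusted p = 0.00022).

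Setdb1 itself stood at 203, 197 and 195 CPM in knockout lines and 229, 219 and 214 CPM in wild-type lines. The groups were narrow and did not overlap, with a log2 fold change of -0.15 (SE 0.051, adjusted p = 0.018). The call was lost without knockout replicate 2 (adjusted p = 0.061), without wild-type replicate 1 (0.09) and with GC trends removed (0.053). Atf7ip, the partner that stabilises SETDB1 in the nucleus, stood between 129 and 133 CPM in knockout lines and between 121 and 135 CPM in wild-type lines. Its 95% interval ran from -0.07 to 0.14 on the log2 scale. Morc3, an ATPase of nuclear bodies that acts in retroviral silencing, stood between 80.8 and 100 CPM in knockout lines and between 88.5 and 95.1 CPM in wild-type lines (log2 fold change -0.01, adjusted p = 0.89, and 0.14 with GC trends removed, again not called).

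The paralogous trimethylating enzymes Suv39h1 and Suv39h2 differed between the genotypes in opposite directions. Suv39h1 (ENSMUSG00000039231, X chromosome, 8061171 to 8074760, minus strand) stood at 76.7, 75.5 and 68.2 CPM in knockout lines and at 28.5, 28.6 and 28.9 CPM in wild-type lines. The wild-type lines were almost identical and every knockout line was far above them, so the means of 73.5 ± 4.61 and 28.7 ± 0.185 CPM (SD, n = 3) were 2.58-fold apart (log2 fold change 1.37, SE 0.066, adjusted p = 3.8e-12). Suv39h2 (chromosome 2, 3455815 to 3475031, minus strand) stood at 10.1, 9.08 and 12.6 CPM in knockout lines and 15.4, 14.8 and 18.9 CPM in wild-type lines. It was 1.62-fold lower in the knockout, with no overlap (log2 fold change -0.69, SE 0.123, adjusted p = 0.00014). Per kilobase of exons, Suv39h1 stood at 13.9 ± 0.875 and Suv39h2 at 2.40 ± 0.414 CPM in the knockout. In the wild-type the same levels per kilobase were 5.44 ± 0.0351 and 3.71 ± 0.510 CPM, so the paralogs lay closer together there. Of the Suv39h1 exon bases, 14.6% overlap the antisense gene Gm14820.

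Setdb2, a less studied SET domain enzyme of the same class, stood at 9.43, 8.15 and 10.9 CPM in knockout lines and 7.42, 7.51 and 7.54 CPM in wild-type lines. The groups did not overlap, but the gene was not called (log2 fold change 0.30, SE 0.125, adjusted p = 0.053). It was called without knockout replicate 2 (0.42, adjusted p = 0.02) and with GC trends removed (0.48, adjusted p = 0.0022).

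Suv39h1 is X-linked, and its neighbours were higher as well. Among the other 52 tested genes of the 5 to 10 Mb window of the X chromosome that holds it, 50 were higher, 0 were lower and 2 were not called, with a median log2 fold change of 1.59. Suv39h1, at 1.37, was below that median. Over 512 tested X-linked genes the median was 0.37, with 278 higher and 76 lower, while over 14105 autosomal genes it was 0.00. The Suv39h1 difference therefore cannot be told apart from that of its neighbourhood, and the Xist and Y-linked values above go with the same split of the lines. Atrx, the other X-linked gene of the list, lies in a window (105 to 110 Mb) whose other 17 tested genes had a median of -0.27, with 2 higher, 9 lower and 6 not called. On the autosomes alone, 4 of 31 genes of the list were higher (12.9%) and 14 were lower (45.2%), against 25.5% and 24.3% of the 14105 autosomal genes. This count does not separate genotype from the split of Y-linked RNA, which is the same for autosomal genes.

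**Figure D2:**
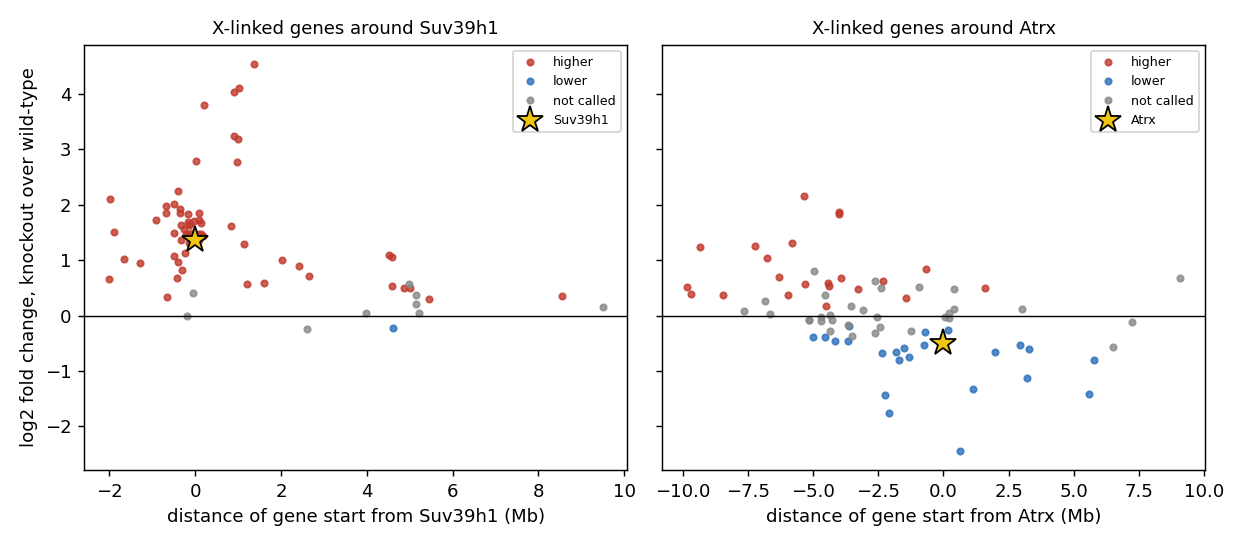
Log2 fold change (vertical axis) of tested X-linked genes by the distance of their start from Suv39h1 (left) or Atrx (right) in Mb, with red for higher, blue for lower and grey for not called. The star marks the named gene: Suv39h1, at 1.37, sits within a crowd of higher genes, and Atrx, at -0.50, sits among genes of mixed direction.

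The G9a-GLP complex writes H3K9 dimethylation in euchromatin. Zfp644, which encodes a zinc finger subunit that guides the complex to DNA, fell most: it stood at 22.1, 20.7 and 22.8 CPM in knockout lines and at 32.8, 33 and 32.5 CPM in wild-type lines. The gap between the groups was many times the spread within them (log2 fold change -0.59, SE 0.073, adjusted p = 1.7e-06). Ehmt2, which encodes G9a, stood at 217, 214 and 187 CPM in knockout lines and 241, 234 and 223 CPM in wild-type lines (log2 fold change -0.17, SE 0.060, adjusted p = 0.022). Ehmt1, which encodes GLP, stood at 134, 127 and 125 CPM in knockout lines and 153, 145 and 135 CPM in wild-type lines (-0.16, SE 0.057, adjusted p = 0.022).

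Both enzyme genes showed adjacent, non-overlapping groups. Both lost the call without wild-type replicate 1 or 2, Ehmt1 also without knockout replicate 2 and Ehmt2 also without knockout replicate 3, when its log2 fold change was -0.11 (adjusted p = 0.091). Wiz, the other zinc finger subunit, stood at 171 CPM in each knockout library and at 158, 163 and 173 CPM in the wild-type. It was not called (0.05, adjusted p = 0.4), and 22.7% of its exon bases overlap genes of the opposite strand. The 3 subunit genes with a miR-34a seed match, Ehmt1, Ehmt2 and Zfp644, were the 3 that were lower, and Wiz carried none. Over all tested genes, 908 of 3123 with a match were higher and 796 lower, and a link between match and direction was not tested.

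HP1 proteins bind methylated H3K9 through a chromodomain, and all 3 HP1 genes fell. Cbx1, which encodes HP1β (ENSMUSG00000018666, chromosome 11, 96789127 to 96808640), stood at 219, 221 and 242 CPM in knockout lines and 316, 335 and 322 CPM in wild-type lines. Its log2 fold change was -0.51 (SE 0.054, adjusted p = 2.2e-07). Cbx3, which encodes HP1γ (chromosome 6, 51470360 to 51483704), stood at 80.1, 82.4 and 102 CPM in knockout lines and 127, 146 and 130 CPM in wild-type lines (-0.62, SE 0.087, adjusted p = 8.8e-05). Knockout replicate 3 was the highest knockout library for both genes, yet below every wild-type library.

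Cbx5, which encodes HP1α (chromosome 15, 103191544 to 103239816, minus strand), stood at 161, 153 and 202 CPM in knockout lines and 270, 261 and 244 CPM in wild-type lines. Its groups also stayed apart, with a log2 fold change of -0.60 (SE 0.096, adjusted p = 0.00065). All 3 HP1 genes were called lower in each of the 15 alternatives. With library GC trends removed their log2 fold changes were -0.40 for Cbx1, -0.38 for Cbx3 and -0.42 for Cbx5. Cbx3 and Cbx5 each start close to an hnRNP gene on the opposite strand. Hnrnpa2b1, 466 bases from the Cbx3 start, was lower (794 ± 49.9 against 967 ± 32.0 CPM, -0.29, adjusted p = 0.0004). Hnrnpa1, 616 bases from the Cbx5 start, was not called (1186 ± 164 against 1447 ± 155 CPM, -0.29, adjusted p = 0.061).

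The promoters of the 3 HP1 genes are shown because these paralogs moved together. The windows run from 250 bases before to 50 bases after the start (RefSeq, GRCm38.p6), in gene direction. RefSeq holds 1 promoter for Cbx1 and 2 each for Cbx3 and Cbx5, of which only the most upstream is shown. Capitals mark matches, on either strand, to the GC box (GGGCGG), the CCAAT box (CCAAT) or the E-box (CACGTG).
Cbx1, chr11:96788885-96789184, plus strand: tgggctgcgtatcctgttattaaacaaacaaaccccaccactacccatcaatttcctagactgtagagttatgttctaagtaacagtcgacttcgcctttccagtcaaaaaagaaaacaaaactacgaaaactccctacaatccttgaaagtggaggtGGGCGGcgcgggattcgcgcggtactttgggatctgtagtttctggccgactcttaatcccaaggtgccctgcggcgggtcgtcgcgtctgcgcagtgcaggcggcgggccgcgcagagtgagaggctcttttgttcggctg
Cbx3, chr6:51470366-51470665, plus strand: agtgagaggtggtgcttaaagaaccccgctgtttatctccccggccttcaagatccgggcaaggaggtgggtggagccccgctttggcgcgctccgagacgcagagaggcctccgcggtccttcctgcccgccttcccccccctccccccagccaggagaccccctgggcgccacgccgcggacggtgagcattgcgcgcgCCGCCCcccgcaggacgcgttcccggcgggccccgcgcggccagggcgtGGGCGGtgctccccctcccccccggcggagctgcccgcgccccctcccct
Cbx5, chr15:103239803-103240102, minus strand: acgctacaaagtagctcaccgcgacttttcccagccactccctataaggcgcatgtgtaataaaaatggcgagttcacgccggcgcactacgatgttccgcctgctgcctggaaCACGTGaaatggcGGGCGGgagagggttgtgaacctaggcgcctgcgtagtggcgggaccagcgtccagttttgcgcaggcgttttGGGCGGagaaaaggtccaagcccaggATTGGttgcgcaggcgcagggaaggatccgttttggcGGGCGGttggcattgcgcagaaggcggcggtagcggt
Each of these windows holds a GC box, with 1 in Cbx1, 2 in Cbx3 and 3 in Cbx5. They hold 22, 34 and 29 CpG dinucleotides, where the median of 32851 promoters, those of untested genes included, was 7. A median for tested genes alone was not taken. The CCAAT box and the E-box were found only in the Cbx5 window of the 3. The GC box was present in 35.7% of all promoters. The shares that follow count genes instead, with a match in any promoter of the gene. Counted so, the GC box was in 68.7% of tested genes and in 26 of the 32 genes of the list with a promoter sequence (81.2%). The E2F motif TTCCCGCC was in 6 of the 32 (18.8%), namely Trim28, Suv39h2, Wiz, Zfp644, Chaf1a and Sumo2, and in 4.71% of tested genes. The CCAAT box was in 20 of the 32 (62.5%, against 43% for tested genes) and the E-box in 3 (9.38%, against 11.7%). The other motifs searched, on both strands, were those of ETS factors (CCGGAAG, 4 of the 32, against 19.1% of tested genes), NRF1 (GCATGCGC, 2, against 5.84%), YY1 (AAGATGGCG, 2, against 3.38%) and CREB (TGACGTCA, 1, against 3.52%).

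Of the remodellers and the DAXX-ATRX pair, which deposits histone H3.3 at repeats, 3 of 4 genes were lower. Smchd1 (ENSMUSG00000024054, chromosome 17, 71344489 to 71475343, minus strand), which encodes a noncanonical SMC protein needed for silencing of the inactive X and of imprinted clusters, stood at 36.2, 35.2 and 43.4 CPM in the knockout. In the wild-type it stood at 67.9, 65.5 and 66.2 CPM. No knockout line came near the wild-type range, and the log2 fold change of -0.83 (SE 0.072, adjusted p = 1.7e-08) was the lowest of the 33 genes. Atrx, the chromatin remodeller of the pair, stood at 222, 224 and 252 CPM in knockout lines and 332, 299 and 354 CPM in wild-type lines (-0.50, SE 0.065, adjusted p = 5.2e-06). Its histone chaperone partner Daxx stood between 135 and 141 CPM in knockout lines and between 139 and 141 CPM in wild-type lines, with a 95% interval from -0.11 to 0.09. Whether the Atrx and Daxx differences are unequal was not tested.

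Hells, which encodes the remodeller LSH that supports DNA methylation of repeats, stood at 55.3, 67.0 and 64.1 CPM in knockout lines and 74.4, 77.9 and 69.0 CPM in wild-type lines. The groups were adjacent without overlap, with a log2 fold change of -0.24 (SE 0.073, adjusted p = 0.0091). The call was lost without knockout replicate 1 (-0.16, adjusted p = 0.087) and with GC trends removed (0.02, adjusted p = 0.85).

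The chaperones of H3 and H4 showed no common direction. Chaf1a, the large subunit of the replication-coupled assembly factor CAF-1, was higher, at 170, 168 and 148 CPM in knockout lines and 143, 136 and 131 CPM in wild-type lines (log2 fold change 0.25, SE 0.060, adjusted p = 0.002). Of its exon bases, 52.5% overlap Ubxn6 on the opposite strand, and the sources used here do not say whether the counting used strand. Chaf1b, the middle subunit, stood between 106 and 120 CPM in knockout lines and between 107 and 113 CPM in wild-type lines. Its 95% interval ran from -0.10 to 0.13.

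Asf1a and Asf1b encode the chaperones that hand new histones to CAF-1. Asf1a stood at 21.4, 21 and 23.8 CPM in knockout lines and 28.1, 25.6 and 23.5 CPM in wild-type lines. It was the only called gene of the list whose groups overlapped (-0.25, SE 0.085, adjusted p = 0.02), and 48% of its exon bases overlap Mcm9. The call was lost with DESeq2, without knockout replicate 1 or 2, without wild-type replicate 1 and with GC trends removed (0.01, adjusted p = 0.97). Asf1b stood between 34.6 and 41.0 CPM in knockout lines and between 38.6 and 45.5 CPM in wild-type lines, and was not called (-0.14, adjusted p = 0.14), except without wild-type replicate 1 (-0.22, adjusted p = 0.048).

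Of the LSD1-CoREST complex, which acts on H3K4, 1 of 4 genes was lower and 3 were not called. Kdm1a, which encodes LSD1, stood at 253, 248 and 267 CPM in knockout lines and 253, 257 and 256 CPM in wild-type lines. Its 95% interval ran from -0.10 to 0.10 on the log2 scale. The scaffold gene Rcor1 (log2 fold change 0.05, interval -0.09 to 0.19) and the deacetylase gene Hdac2 (-0.07, interval -0.19 to 0.05) were not called either. Hdac2 was called lower without knockout replicate 3 (-0.14, adjusted p = 0.048) and stood at 0.12, not called, with GC trends removed. Zmym2, a zinc finger protein that joins this complex through SUMO, was the exception. It stood at 16.3, 17.6 and 21.9 CPM in knockout lines and 25.1, 25 and 26.2 CPM in wild-type lines, with knockout replicate 3 nearest to the wild-type but below it (-0.49, SE 0.094, adjusted p = 0.00024).

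SUMO attached to TRIM28 and to other repressors recruits SETDB1. Pias4, a SUMO ligase, was higher, at 94.6, 94.8 and 84.7 CPM in knockout lines and 73.1, 72.4 and 77.1 CPM in wild-type lines (log2 fold change 0.31, SE 0.061, adjusted p = 0.00037). Senp6, a protease that trims SUMO chains, was lower, at 50, 51.7 and 56 CPM against 62.2, 67.0 and 62.9 CPM (-0.29, SE 0.064, adjusted p = 0.00093). Neither gene's groups overlapped.

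Sumo2, the modifier itself, stood at 202, 214 and 259 CPM in knockout lines and 245, 282 and 307 CPM in wild-type lines. Knockout replicate 3 lay inside the wild-type range, and the gene was not called (-0.31, SE 0.117, adjusted p = 0.066), although it was in 7 of 15 alternatives. Only 69.8% of its 50-base stretches were unique among annotated transcripts, so its counts may be shared with processed copies.

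Levels of different genes were set side by side as CPM per kilobase of exons. Trim28 was the most abundant of the 33, at 739 ± 31.2 in knockout lines and 670 ± 20.3 in wild-type lines, followed by Sumo2, Zfp57, Cbx1 and Kdm1a. Sumo2 (130 ± 17.3) and Zfp57 (140 ± 4.98) did not differ beyond their spread in the knockout, while in the wild-type Sumo2 (160 ± 18.0) was far above Zfp57 (71.2 ± 3.30) and Zfp57 lay next to Cbx1 (75.9 ± 2.38). Cbx1 was the highest HP1 gene in both genotypes. Cbx5 (19.1 ± 2.90) and Cbx3 (14.7 ± 2.05) lay within 2 SD of each other in the knockout, and their order reversed when the longest transcript was taken as the length, Cbx5 moving from rank 10 to 15 and Cbx3 from 14 to 9. The lowest levels in the mean of all libraries belonged to Zfp644 (1.56 ± 0.0746 in the knockout), Setdb2, Smchd1, Zmym2 and Suv39h2. In the wild-type, Setdb2 (1.85 ± 0.0148) was below Zfp644 (2.34 ± 0.0195). With the longest transcript as the length, the first 5 kept their ranks, Setdb2 was lowest, and other genes moved by up to 7 places.

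**Figure D3:**
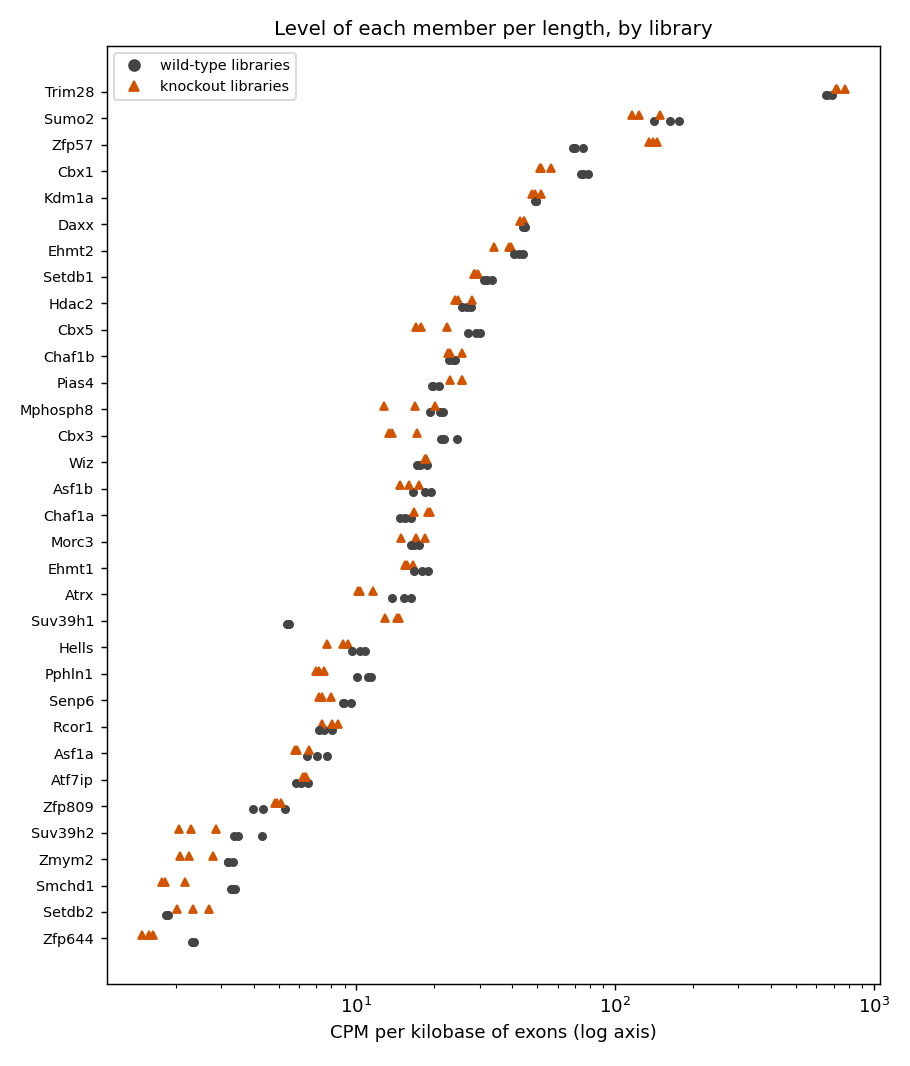
Level of each of the 33 genes in each library as CPM per kilobase of exons (log axis), with circles for wild-type and triangles for knockout libraries, ordered by the mean of all libraries. Trim28 is highest (739 for knockout, 670 for wild-type), Zfp644 is lowest in the mean of all libraries and Setdb2 (1.85) lowest in the wild-type, and only Suv39h1 and Zfp57 show triangles far to the right of the circles.

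Knockout replicate 3 was the knockout library nearest to the wild-type mean in 11 of the 15 lower genes and 4 of the 5 higher ones. The same library was nearest for 50.9% of all genes called lower and 51.3% of those called higher. The pattern was plainest in Smchd1, Suv39h2, Cbx3, Cbx5, Atrx and Zmym2. Without it, 5 genes of the list were higher and 17 lower, and Ehmt2 alone of the 20 called genes lost its call. Calls over all genes tested also became more numerous in both directions, so the added lower calls are not particular to the list. Without knockout replicate 3, the difference was larger in 16 of the 20 called genes of the list. Leaving out the knockout library nearest to the wild-type mean tends to enlarge a difference, so this mostly restates its position. The share over all called genes was not taken. Cbx5 went from -0.60 to -0.72, Cbx3 from -0.62 to -0.72, Smchd1 from -0.83 to -0.90 and Zmym2 from -0.49 to -0.58, while Ehmt2 went from -0.17 to -0.11.

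**Figure D4:**
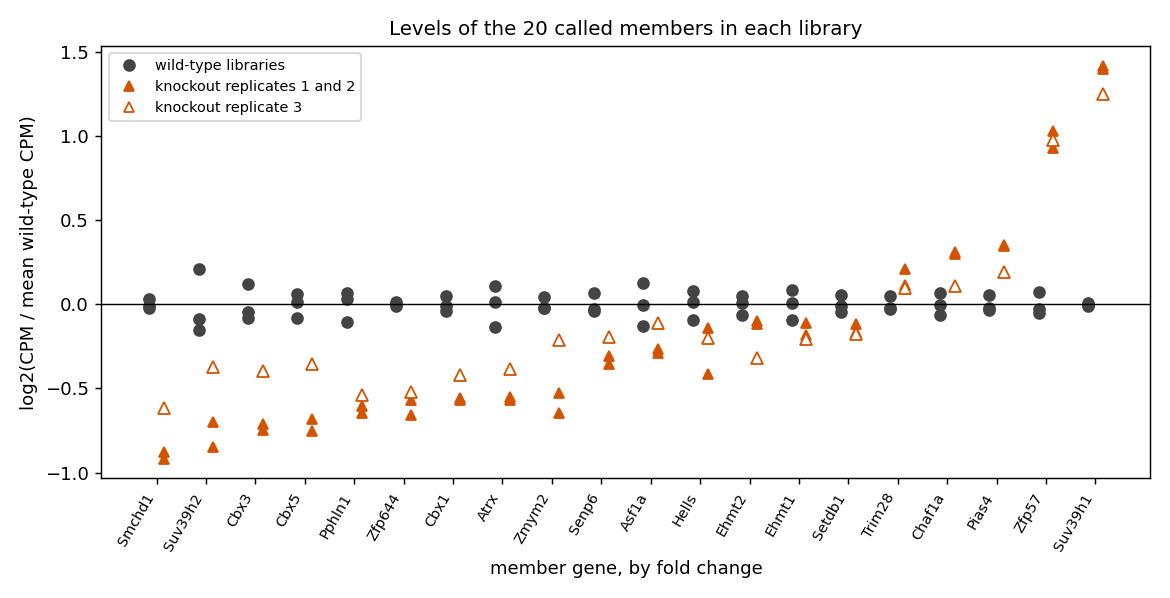
Level in each library of the 20 called genes, as log2 of CPM over the wild-type mean (vertical axis), ordered by fold change, with circles for wild-type libraries, filled triangles for knockout replicates 1 and 2 and open triangles for knockout replicate 3. The open triangle is the one nearest to 0 in 11 of the 15 lower and 4 of the 5 higher genes, and only Asf1a shows a triangle among the circles.

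Fold changes of the 33 genes followed the GC content of their transcripts, with a Spearman's rho of 0.62 across the 33 genes and 0.28 across 14638 tested genes. These are descriptions across genes that share the same 6 libraries. The median GC content was 42.6% for the lower genes, 52.7% for the higher ones and 47.7% for those not called, beside 50.3% over all genes tested. When a smooth GC trend was removed from each library, 6 genes of the list were higher and 12 lower, while 26.8% and 21.1% of all genes tested were. The median log2 fold change then was -0.11 over the 33 genes and 0.03 over all genes. Among the low-GC genes, Atrx went from -0.50 to -0.28, Zfp644 from -0.59 to -0.35 and Smchd1 from -0.83 to -0.64, each still called. Zmym2 went from -0.49 to -0.25 (adjusted p = 0.014) and Senp6 from -0.29 to -0.16 (adjusted p = 0.022), also still called. Among genes of higher GC content, Pias4 went from 0.31 to 0.20 and Ehmt2 from -0.17 to -0.27, both still called. Zfp57 went from 0.98 to 1.07 and Suv39h1 stayed at 1.37.

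**Figure D5:**
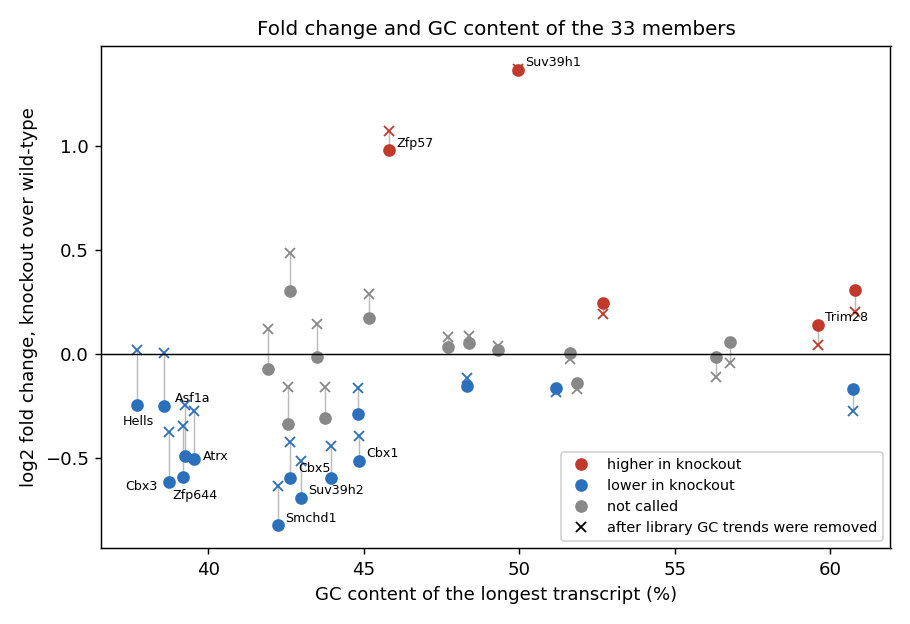
Log2 fold change (vertical axis) of the 33 genes by GC content of the longest transcript in percent (horizontal axis), as deposited (circles) and after library GC trends were removed (crosses), with red for higher, blue for lower and grey for not called. The crosses of the low-GC genes lie above their circles, reaching 0.02 for Hells and 0.01 for Asf1a, while Smchd1 remains at -0.64.

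Of the 8 genes with a miR-34a seed match, 1 was higher (Chaf1a), 6 were lower (Pphln1, Ehmt1, Ehmt2, Zfp644, Cbx1 and Cbx5) and Rcor1 was not called. Of the 25 without one, 4 were higher, 9 lower and 12 not called. The median log2 fold changes were -0.34 with and -0.07 without a match. Over all tested genes they were 0.02 and 0.00, and of 3123 genes with a match 908 were higher and 796 lower. Genes with a match have longer UTRs, with a median of 2182 bases against 967 in the list and 2260 against 900.5 over all genes.

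Other genes of the same pathways were taken from 7 lists of 88 genes, of which 84 were tested: 21 were higher (25%), 24 lower (28.6%) and 39 not called, with a median log2 fold change of -0.03. These shares are close to the 26.5% and 24% of all genes tested, against which the counts of each list are also to be read. Of 9 further KRAB zinc finger genes 2 were higher and 2 lower. Zfp600 had the largest difference among them, at 6.66 ± 0.840 CPM in knockout lines and 2.67 ± 0.376 CPM in wild-type lines (log2 fold change 1.28, SE 0.165, adjusted p = 3e-06). Zfp459 was higher by 0.30 (adjusted p = 0.011), a call lost when knockout replicate 1 or wild-type replicate 3 was left out. Gm15446 was lower (log2 fold change -0.46, adjusted p = 0.026), and lost its call with DESeq2, with GC trends removed and without knockout or wild-type replicate 2. Of 7 partners of HUSH and SETDB1, 1 was higher and 3 lower. Fam208b, a paralog of the HUSH scaffold gene, stood at 28.9 ± 4.25 against 39.3 ± 2.18 CPM (-0.49, adjusted p = 0.00012). The HUSH effector Morc2a stood at 128 ± 4.85 against 152 ± 8.2 CPM (-0.25, adjusted p = 0.00098), and the TRIM28 relative Trim24 was higher by 0.17 (adjusted p = 0.0095), a call lost without wild-type replicate 1.

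Of 11 genes listed with the other H3K9 methyltransferases and readers, not all of them either of these, 4 were higher and 2 lower. The PR-domain genes Mecom (5.34 ± 0.952 against 1.80 ± 0.108 CPM, 1.63, adjusted p = 5.1e-07) and Prdm16 (14.8 ± 0.360 against 7.71 ± 0.498 CPM, 0.96, adjusted p = 3.6e-07) rose. Cdyl, which encodes a chromodomain reader of H3K9 methylation, fell from 77.5 ± 1.18 to 47.4 ± 1.92 CPM (-0.72, adjusted p = 8.7e-09), and Zfp462, an HP1-associated zinc finger gene, was lower by 0.30 on the log2 scale (log2 fold change -0.30, adjusted p = 0.00028). The H3K9 demethylases also went both ways, with 4 of 9 higher and 2 lower. Phf2 (0.68, adjusted p = 2.1e-05) and Kdm4b (0.40, adjusted p = 0.00019) were higher, while Jmjd1c (-0.40, adjusted p = 6.7e-06) and Kdm4c (-0.31, adjusted p = 0.00034) were lower.

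Of 14 further histone deposition genes, 3 were higher and 6 lower, with Dek (-0.37), Nasp (-0.31), Mms22l (-0.27) and H3f3b (-0.25) leading the lower ones. The Dek, Nasp and H3f3b calls were lost with GC trends removed. Of 14 further genes listed with the LSD1-CoREST complex, not all of them its subunits, 4 were higher and 3 lower. Rcor2, the CoREST paralog typical of pluripotent cells, was higher (340 ± 10.5 against 245 ± 12.9 CPM, 0.47, adjusted p = 6.6e-07), as were Gse1 (0.75) and the X-linked Zmym3 (0.53), and Mbd3 was lower (-0.33). Of 20 further SUMO pathway genes, 3 were higher and 6 lower, led by the ligase-related Zmiz1 (136 ± 8.35 against 62.1 ± 5.25 CPM, 1.13, adjusted p = 6e-11), the proteases Senp3 (0.52) and Senp2 (-0.57) and the modifier Sumo3 (-0.47).

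The retroviral families that this machinery restrains stand in the same table as 902 repeat rows, of which 756 were tested. The repeat families called higher in the knockout numbered 57 (7.54%) and the repeat families called lower in the knockout 73 (9.66%). The balance turned when families were scaled by their own counts, with 85 higher and 61 lower. Families moved in both directions. MERVL-int, the body of a retrovirus active in 2-cell embryos, stood at 975, 924 and 1032 CPM in knockout lines and 52.0, 51.2 and 55.1 CPM in wild-type lines (log2 fold change 4.21, SE 0.072, adjusted p = 7.2e-30). RLTR4_MM-int, a murine leukaemia virus-like family, rose as well, from 116, 118 and 128 CPM in the wild-type to 234, 248 and 242 CPM in the knockout (1.00, SE 0.068, adjusted p = 3.5e-13). RLTR6-int, another family of this class, was higher too (56.7 ± 1.82 against 43.2 ± 1.74 CPM, 0.40, SE 0.085, adjusted p = 0.001). The class did not rise as a whole, since MuLV-int (-0.13, adjusted p = 0.29) and RLTR4_Mm (-0.13, adjusted p = 0.46) were not called. Nor were MMERGLN-int (-0.40, adjusted p = 0.069) and MMVL30-int (0.17, adjusted p = 0.7). The pMX vectors in every line derive from a murine leukaemia virus, and their part in these values was not tested.

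Families of the intracisternal A particle and early transposon classes, the best-known targets of TRIM28 and SETDB1, were not called higher. IAPEz-int stood at 147, 159 and 177 CPM in knockout lines and 213, 232 and 256 CPM in wild-type lines (-0.54, SE 0.076, adjusted p = 4.1e-06). MMETn-int stood at 376, 373 and 542 CPM in knockout lines and 899, 984 and 1171 CPM in wild-type lines (-1.25, SE 0.208, adjusted p = 0.024), a call lost when any library other than knockout replicate 3 was left out. The related ETnERV-int (-1.01, adjusted p = 0.057) and IAPLTR1_Mm (-0.09, adjusted p = 0.85) were not called. These rows sum reads over many copies, and no single locus was measured.

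Fibroblast genes, listed as markers of feeder or unreprogrammed cells, also differed. Of 19 tested markers 3 were higher (15.8%) and 12 lower (63.2%) in the knockout, against 26.5% and 24% of all genes tested. The summed level of the markers was 2907 to 3227 CPM in knockout lines and 3291 to 3647 CPM in wild-type lines. Most of that sum was Fn1 (2017 ± 79.0 and 2137 ± 17.3 CPM), so it does not measure feeder content. Fn1, Col1a2, Col6a1 and Loxl1 were not called. Col1a1, a fibroblast collagen gene, was lower (127 ± 18.3 against 254 ± 48.7 CPM), as were Acta2 (-1.81) and Postn (-3.03), while S100a4 (1.62), Twist1 (0.54) and Vim (0.44) were higher. Lum was at 0 in every knockout library and had 0, 1 and 2 counts in the wild-type, too few to test. The part of this difference in the levels of the 33 genes was not tested.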

How the data were processed

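Poly(A) RNA-seq of 6 libraries was analysed, 3 per genotype, grouped by the genotype in the labels. The authors deposited raw counts per gene and repeat family, whole numbers with no normalization; TopHat2 2.0.11, featureCounts 1.4.5 and mm10 are named in the submitters' processing notes. Strand and multi-mapping options of the counting: not given in the sources used here. A table of a second run has 6 columns that match no label; they were not used.

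The 41388 gene rows were tested with edgeR 4.0.16 (R 4.3.3): filterByExpr, TMM factors, glmQLFit with robust = TRUE, glmQLFTest, two-sided, Benjamini-Hochberg over all genes tested. SE is the log2 fold change over the square root of F. The 95% intervals are 1.96 SE, a normal approximation that can be too narrow with 3 lines per genotype. That of Mphosph8, -0.66 to -0.02, leaves out 0 although its unadjusted quasi-likelihood p was 0.089. CPM uses the TMM-scaled library size. The 902 repeat rows used the genes' library sizes and factors. The steps were tested on simulated data. Symbols and coordinates are from GENCODE M21 (40340 rows matched), and promoters and miRNAs from RefSeq (32 of 33 genes matched). A match to more than one place was measured as 50-base stretches shared between annotated transcripts.

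The 33 genes and the other lists were chosen with earlier results of these data known. Every gene of the list is named. Of each pathway list, up to 4 called genes with groups that do not overlap are named by smallest p. Marker genes are named outside this rule. Alternatives were DESeq2 1.42.0 and its size factors, library totals, limma 3.58.1 voom, 2 other count filters, a replicate block, robust = FALSE, removal of GC trends (lowess on genes above 5 CPM) and each library left out.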

Additional observations from a re-analysis of the deposited data

How the results depend on the processing

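Over 15 alternatives the 33 genes gave 4 to 6 higher and 12 to 17 lower calls. Of 495 values of a gene under an alternative, 25 of called genes were without the call and 17 of uncalled genes had one. Of the 20 called genes, 14 were called in every alternative, 4 of them higher and 10 lower. Trim28, Setdb1, Ehmt1, Ehmt2, Hells and Asf1a lost the call at least once. Among called genes, Hells (0.018) and Asf1a (0.0051) changed sign, both with GC trends removed. The sign also changed in 19 values of 7 uncalled genes (Atf7ip, Morc3, Wiz, Daxx, Chaf1b, Kdm1a and Hdac2), none of which was called there. Of 26 named genes of the other lists, 6 lost the call at least once, and none changed direction. With libraries left out, repeat families called lower numbered 26 to 79 around 73 with all libraries, with 26 when knockout replicate 1 was absent and 47 when wild-type replicate 1 was; the cause was not tested.

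The labels number the lines, and the extraction protocol speaks of 3 pairs without saying whether the numbers mark them. Deviations of same-numbered lines correlated at 0.0885, -0.0198 and 0.11, and those of differently numbered lines at -0.116 to 0.0629. The numbers were not read as pairs here, and these values do not settle how the lines were paired. With the number as a replicate block, 6 genes of the list were higher and 17 lower, the genes called higher in the knockout numbered 4055 and the genes called lower in the knockout 3779. Setdb2, Mphosph8 and Sumo2 gained a call there. Genes near 0.375 CPM are not resolved in the shallowest library; none of the 33 lies near that level. With the longest transcript as the length, 29 of the 33 levels per kilobase moved by more than 1 SD.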
